A study of Arabidopsis thaliana with 9 samples.

Results

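The genes described here are the 34 Arabidopsis thaliana protein-coding genes named RALF or RALFL with a number, out of 27444 protein-coding genes on nuclear chromosomes 1 to 5. They were picked by gene symbol (RALF1, RALF23 and 32 RALFL genes), and the coverage values below were in view when the family was chosen, so they are given as a description with no test. RALF peptides (rapid alkalinization factors) are small secreted peptides, many of them cut from a longer precursor by the protease S1P. They are read at the cell surface by receptor kinases of the FERONIA type, together with LORELEI-type co-receptors and leucine-rich repeat extensins of the cell wall. RALFL4 and RALFL19 act in the pollen tube, where they keep the growing tube from bursting, and other members act in pollen, on the stigma, in roots and in immunity.

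The material was sperm nuclei of htr10 mutant plants, which carry a mutation in HTR10, a histone H3 gene of the male gamete. Chromatin was cut to mononucleosomes with micrococcal nuclease and precipitated with an antibody to H3K27me3 (3 samples) or to H3K27me1 (3 samples), and 3 samples were input chromatin. All 9 samples were htr10, with the ecotype written as Col-0 for 5 samples and as Col-1, Col-2, Col-3 and Col-4 for 1 sample each, so no group without the mutation was analysed here. H3K27me3 is the mark left by Polycomb repressive complexes on silenced genes, and H3K27me1 is best known from silent heterochromatin. The data were 1 broad and 1 narrow peak list per mark, and each list stands for all 3 precipitations of its mark. The lists hold no value per sample, so no value below has a replicate error, the sequencing depth is unknown, and differences between genes or marks were not tested. Peak lists hold no expression, so the purity of the sorted sperm nuclei could not be checked from marker genes.

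H3K27me3 peaks that reached a RALF gene mostly covered all of it. At least 1 base of a broad H3K27me3 peak fell in 12 of 34 RALF genes (35.3%), against 26.0% of all protein-coding genes, and a broad H3K27me1 peak reached 6 of 34 (17.6%), against 22.7%. Coverage of at least 50% of the gene length was found for H3K27me3 in 11 of 34 RALF genes (32.4%), against 5.67% of all genes. For H3K27me1 it was found in 5 of 34 (14.7%), against 5.49%. H3K27me3 covered 9 of 34 RALF genes from end to end (26.5%, against 3.89% of all genes), and H3K27me1 covered 5 (14.7%, against 3.88%). The median coverage of the gene was 0% under both marks, in the family as in all genes. Summed over the family, 29.5% of 24321 gene bases lay under H3K27me3 and 10.8% under H3K27me1, against 5.88% and 5.47% of the bases of all protein-coding genes.

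**Figure D1:**
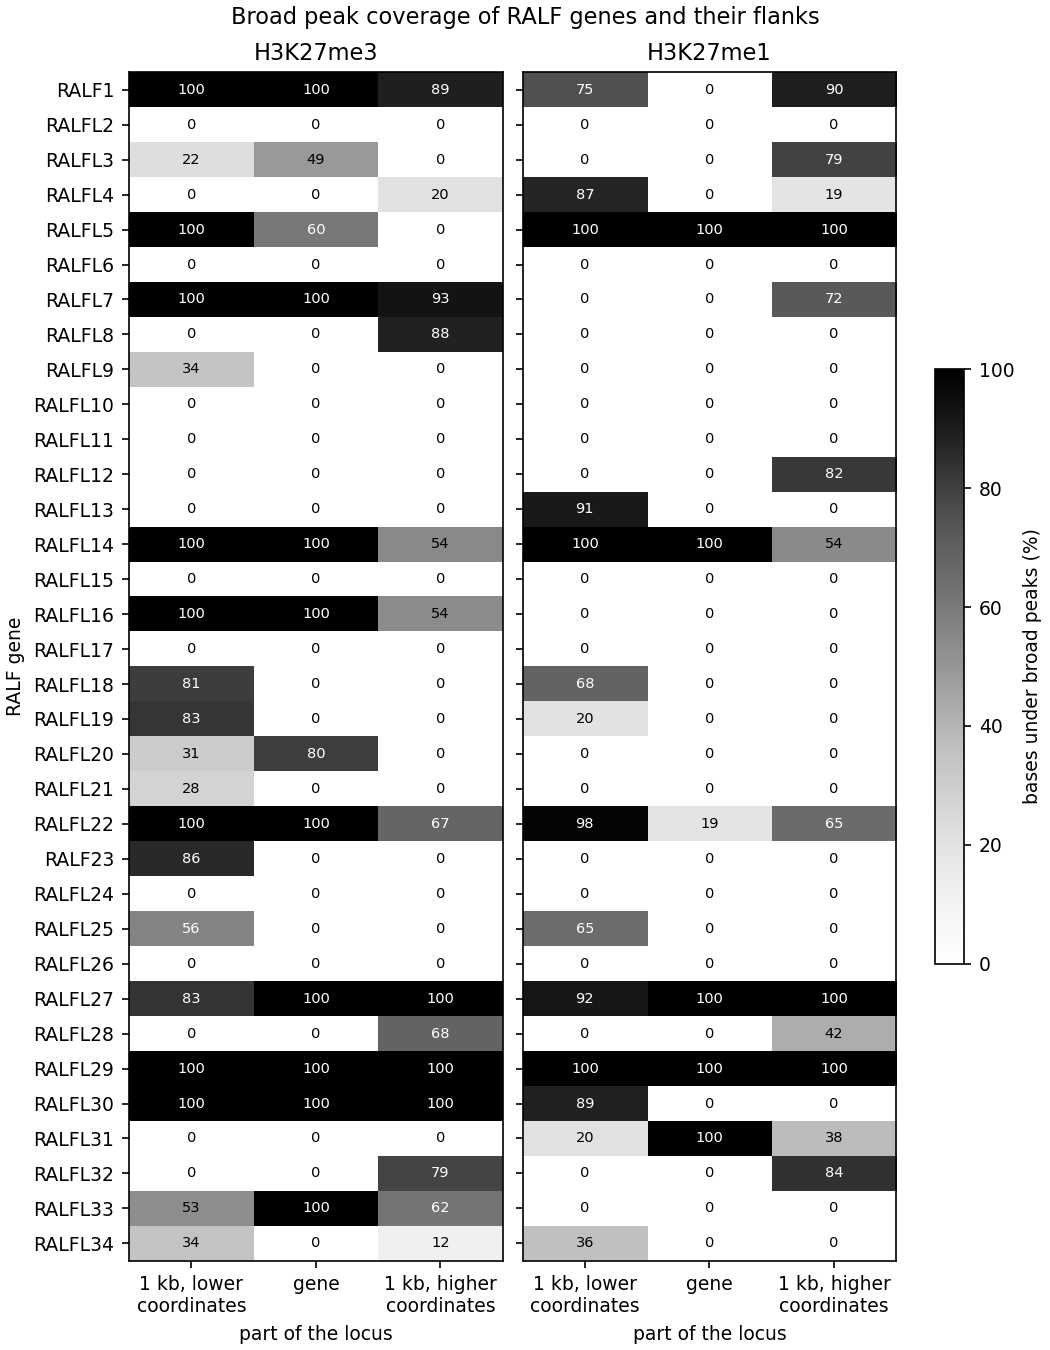
Percent of each RALF gene and of the 1 kb on either side that lay under broad peaks of H3K27me3 (left panel) and H3K27me1 (right panel), 1 row per gene and 1 column per stretch of the locus. Dark middle cells are covered genes, of which H3K27me3 had 12 with any base and H3K27me1 had 6, and RALFL29 is the gene at 100% in all 6 cells.

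Among the 4 RALF genes known for acting on the stigma, 3 lay fully under H3K27me3. In the whole family 9 of 34 genes did (26.5%), and 3.89% of all genes. A class of 4 genes is too small to be set apart from the family. RALF1, a ligand of the receptor kinase FERONIA that restrains root cell growth, lay 100% under H3K27me3 and had no H3K27me1 in it. Its H3K27me3 peak (chromosome 1, 651978 to 655351 in TAIR10, the build of all positions here) had a −log10 q of 3.40 and a fold of 1.79, the authors' ratio of signal to background. The H3K27me1 list had 1 peak on each side of RALF1, 247 and 66 bp away, which together covered 82.5% of its 1 kb flanks. In the broad lists, the gene thus sat in a gap of H3K27me1 inside an unbroken H3K27me3 peak. Narrow peaks of both marks left the gene free and covered 64.2% (H3K27me3) and 23.4% (H3K27me1) of its flanks. RALFL22, the next of the stigma genes, showed a like layout, with 100% of the gene under H3K27me3 (chromosome 3, 1589350 to 1593720, fold 1.70) and 18.8% under H3K27me1. Its flanks were covered 83.7% by H3K27me3 and 81.6% by H3K27me1. RALFL33 also lay 100% under H3K27me3, in a weaker peak (chromosome 4, 8984258 to 8986613, with a −log10 q of 1.76 and a fold of 1.56), and had no H3K27me1 in the gene or within 1 kb. RALF23, whose precursor is cut by S1P and whose peptide dampens immune signalling, was the exception. It had 0% of the gene under either mark, and an H3K27me3 peak covered 86.0% of the 1 kb on its side of lower coordinates.

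**Figure D2:**
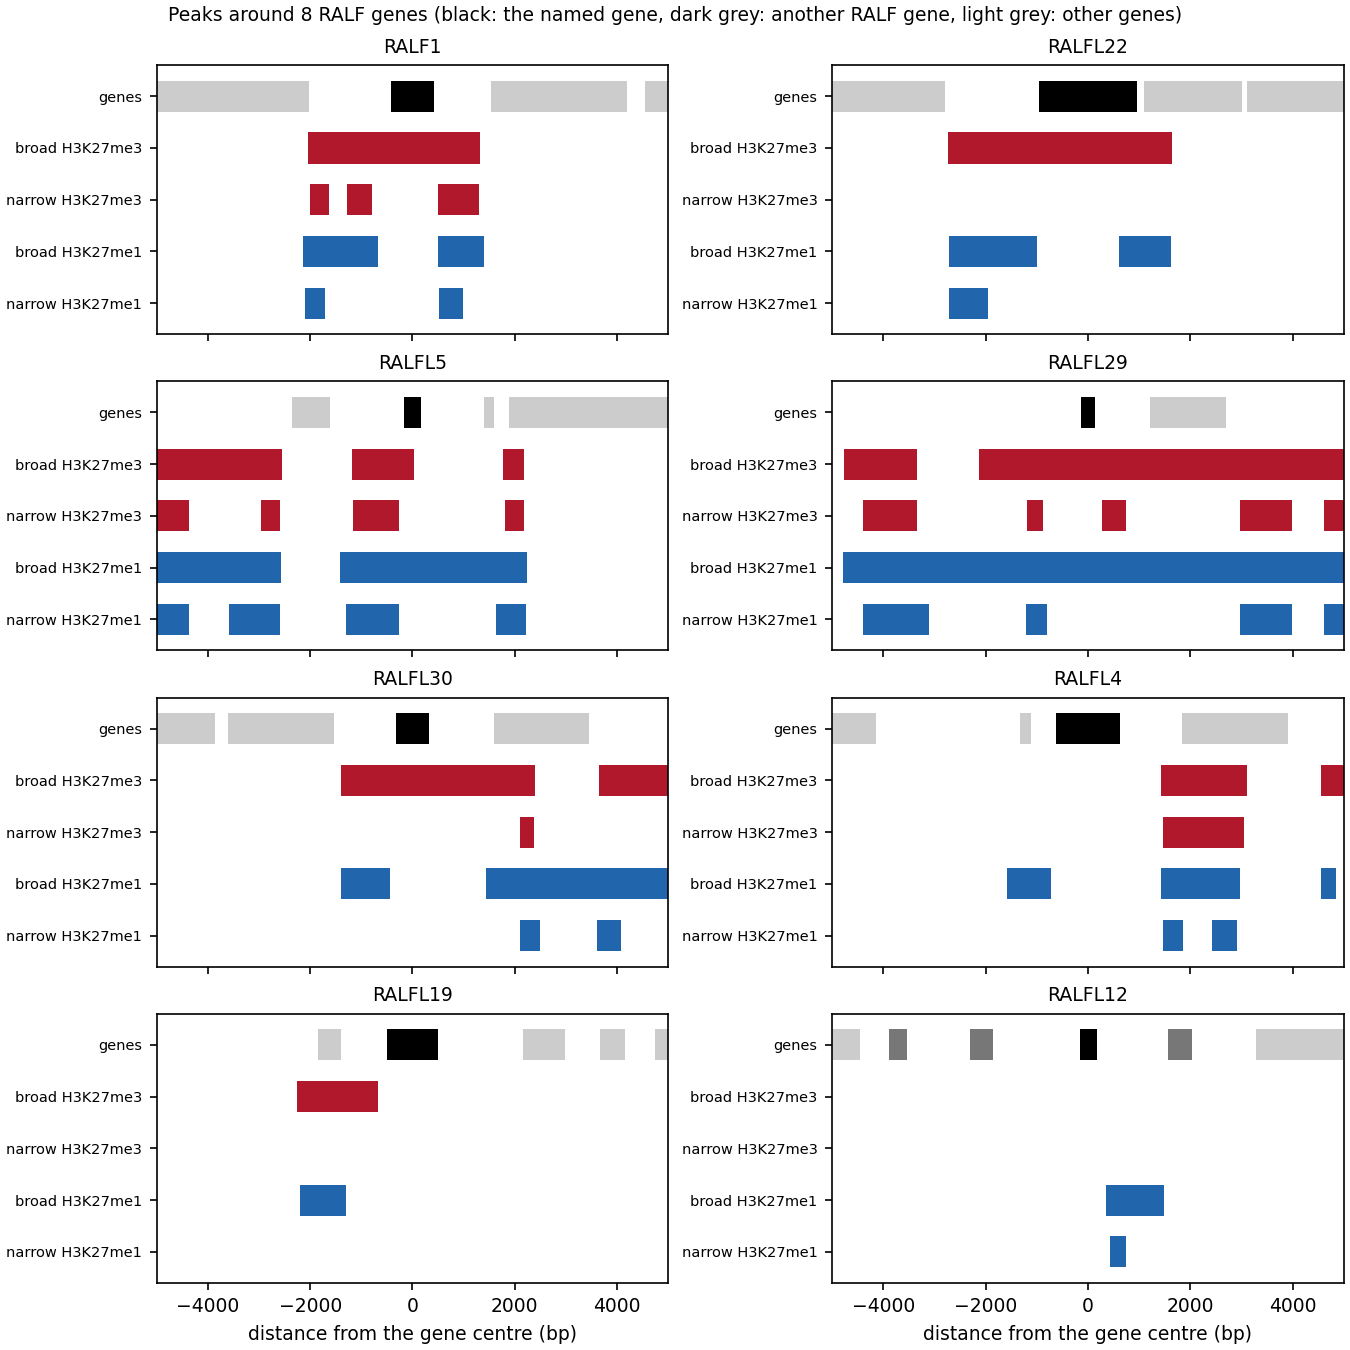
Broad and narrow peaks of H3K27me3 (red) and H3K27me1 (blue) around 8 RALF genes, 5000 bp to either side, with the distance from the gene centre in bp on the horizontal axis. RALF1 and RALFL22 lie under 1 unbroken broad H3K27me3 peak, with a gap between broad H3K27me1 peaks over most of the gene. Narrow peaks of either mark lie in neither RALF1 nor RALFL22. RALFL4 and RALFL19 have peaks beside the gene and 0% within it.

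The pollen genes differed among themselves. RALFL4 and RALFL19, the pair that keeps the pollen tube intact, had 0% of the gene under either mark. The flanks of RALFL4 were covered 9.80% by H3K27me3 and 53.1% by H3K27me1, and those of RALFL19 41.4% by H3K27me3 and 10.1% by H3K27me1. This order of the marks was lost among stronger peaks. With peaks at or above the median fold, the flanks of RALFL4 were covered 9.80% by H3K27me3 and 9.50% by H3K27me1, with narrow peaks 7.75% by H3K27me3 and 7.85% by H3K27me1, and the flanks of RALFL19 0% by both marks under either selection. Next to RALFL4, an H3K27me1 peak ended 97 bp from the gene (chromosome 1, 9881981 to 9882853), but it was one of the weakest of its list, with a −log10 q of 1.17 and rank 11772 of 11898. On the other side a peak of each mark began 804 bp (H3K27me3) and 810 bp (H3K27me1) away and reached into the neighbour AT1G28280. Next to RALFL19, an H3K27me3 peak (chromosome 2, 14286567 to 14288149, fold 1.60, −log10 q of 2.16) ended 173 bp from the gene, and an H3K27me1 peak ended 798 bp away. The median flank coverage of the pair was 25.6% for H3K27me3 and 31.6% for H3K27me1, against 25.7% and 19.6% in the other 32 RALF genes. A gene without coverage was the common case in the family and over all genes. Of these 32 genes, 20 had no H3K27me3 base and 26 no H3K27me1 base in the gene. Over all genes, only 26.0% had an H3K27me3 base and 22.7% an H3K27me1 base in the gene.

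RALFL6, RALFL7 and RALFL16 encode pollen tube peptides that help stop further tubes from entering an ovule that has already received a tube. RALFL7 and RALFL16 lay 100% under H3K27me3 with no H3K27me1 in the gene, whereas RALFL6 had neither mark in the gene or its 1 kb flanks. The peak over RALFL16 (chromosome 2, 13929851 to 13931990) had a −log10 q of 3.22 and a fold of 1.73, and its nearest H3K27me1 peak was 14876 bp away. The RALFL7 peak was much lower in its list, with a −log10 q of 1.44 and rank 11798 of 12927. RALFL6 was the most isolated of these 3 genes, with the nearest H3K27me3 peak 11684 bp and the nearest H3K27me1 peak 16471 bp away.

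Of 7 RALF genes whose pollen peptides act at the stigma, RALFL30 alone had a covered gene. Over all genes, 26.0% had an H3K27me3 base and 22.7% an H3K27me1 base in the gene, so 1 of 7 does not set these genes apart. RALFL30 and both of its flanks lay 100% under an H3K27me3 peak (chromosome 4, 7623544 to 7627331) with a −log10 q of 3.59 and a fold of 1.62. H3K27me1 covered 0% of RALFL30 and 88.6% of the flank of lower coordinates, in a peak that stopped 114 bp from the gene. The other 6 had 0% of the gene under both marks. RALFL10, RALFL11, RALFL12 and RALFL13 stand in a row on chromosome 2, and the H3K27me3 peak nearest to any of them lay 16675 bp from RALFL13. A single H3K27me1 peak lay between RALFL12 and RALFL13 (8250389 to 8251524, fold 1.43, −log10 q of 1.85), and covered 82.0% of the flank of RALFL12 and 91.3% of the flank of RALFL13 that face each other. RALFL10 and RALFL11 had neither mark within 1 kb. RALFL25 and RALFL26 are also near neighbours, on chromosome 3. RALFL25 had a peak of each mark on 1 side, over 55.9% of that flank for H3K27me3 (9162304 to 9162898, fold 1.81) and 65.0% for H3K27me1 (9162306 to 9162989, fold 1.73), and RALFL26 had neither mark within 1 kb.

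Of the 4 RALF genes covered at least 50% by both marks, 2 lay near centromeres. The 4 genes were RALFL5, RALFL14, RALFL27 and RALFL29, which was 11.8% of the family against 3.73% of all genes. RALFL27 and its flank of higher coordinates were covered 100% by both, in an H3K27me3 peak (chromosome 3, 11670805 to 11675980) with a −log10 q of 3.78 and an H3K27me1 peak (11670716 to 11675975) with a −log10 q of 4.71. RALFL29 and both of its flanks were covered 100% by both, in the widest peaks touching a RALF gene (chromosome 4, 7035102 to 7042523 for H3K27me3 and 7032435 to 7042299 for H3K27me1). RALFL14 was covered 100% by both, in peaks of nearly the same extent (chromosome 2, 8907689 to 8910316 for H3K27me3 and 8907625 to 8910313 for H3K27me1). RALFL5 differed from these 3 genes. H3K27me1 covered the gene and both flanks fully (chromosome 1, 13047865 to 13051512), while the H3K27me3 peak (13048096 to 13049308, with a −log10 q of 4.70) ended inside the gene and covered 60.2% of it. RALFL5 and RALFL27 were the 2 RALF genes in windows of whole Mb around the centromeres, where 17.5% of all genes were covered at least 50% by H3K27me3 and 22.7% by H3K27me1. Among the 32 RALF genes outside the windows, 9 (28.1%) were covered at least 50% by H3K27me3, against 4.21% of genes there, and 3 (9.38%) by H3K27me1, against 3.37%. None of the shares in this paragraph is matched for length, and RALF genes are short. Over all genes of up to 500 bp, 21.1% were covered that far by H3K27me3, and 16.1% of those over 500 and up to 1000 bp.

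The remaining genes with coverage carried a single mark in the gene. RALFL31 was the only one with H3K27me1 alone, with 100% of the gene covered (chromosome 4, 8057867 to 8059204, with a −log10 q of 2.81) and the nearest H3K27me3 peak 4568 bp away. RALFL20 and RALFL3 had H3K27me3 alone, over 80.4% and 48.9% of the gene, RALFL3 being the RALF gene just below the 50% mark and RALFL5, at 60.2%, the one just above it. The peaks on both were close to the threshold of the list, with a −log10 q of 1.06 and rank 12902 of 12927 for RALFL20, and 1.27 and rank 12433 for RALFL3. RALFL3 also had an H3K27me1 peak 210 bp from its other end, which covered 79.0% of that flank. Its tandem neighbour RALFL2 had neither mark within 1 kb.

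On many RALF genes H3K27me3 lay without H3K27me1. Of the 12 RALF genes with an H3K27me3 base, 5 also had an H3K27me1 base (41.7%), and of all genes with an H3K27me3 base 67.2% did. In the other direction 83.3% of the 6 RALF genes with H3K27me1 had H3K27me3, against 77.2% of all genes. H3K27me3 alone reached 7 RALF genes (20.6% of the family, against 8.54% of all genes) and H3K27me1 alone 1 (2.94%, against 5.17%). These 7 H3K27me3 peaks had a median −log10 q of 1.76 (1.06 to 3.59), and the 5 on genes that also had H3K27me1 had a median of 3.78 (2.54 to 4.70). Of the 6 RALF genes with at least 50% under H3K27me3 and 0% under H3K27me1, RALF1, RALFL7 and RALFL30 had H3K27me1 in a flank, and RALFL16, RALFL20 and RALFL33 had none. In bases, 24.5% of the H3K27me3 territory in RALF genes also lay under H3K27me1, and in the flanks this share was 60.2%. The gene share rests on 7170 bases in 12 genes. These shares of bases are not given for all genes, so the contrast cannot be called particular to the family.

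More RALF genes had a mark beside them than within them, and the same held over all genes. Of all genes, 26.0% had an H3K27me3 base and 22.7% an H3K27me1 base within the gene. The 2 flanks of 1 kb also span more bases than a RALF gene of the median length, 575 bp. A base of H3K27me3 lay within 1 kb of 23 of 34 RALF genes (67.6%, against 53.2% of all genes), and a base of H3K27me1 within 1 kb of 19 (55.9%, against 47.5%). The median share of the flanks covered was 25.7% for H3K27me3 (quartiles 0 and 55.5%), against 10.8% over all genes, and 19.6% for H3K27me1 (quartiles 0 and 43.7%), against 0%. Both marks were found beside 16 RALF genes (47.1%). H3K27me3 alone lay beside 7 (20.6%), namely RALFL8, RALFL9, RALFL16, RALFL20, RALFL21, RALF23 and RALFL33. H3K27me1 alone lay beside 3 (8.82%), namely RALFL12, RALFL13 and RALFL31. Over all 27444 genes, 14590 had H3K27me3 beside them, 13025 had H3K27me1 and 11665 had both, a share not far below the 47.1% of RALF genes. Of the RALF genes with H3K27me3 beside them, 69.6% also had H3K27me1 there, against 80.0% of all such genes. In the other direction the share was 84.2%, against 89.6%. The 2 adjacent genes RALFL8 and RALFL9 shared 1 H3K27me3 peak, at 22715517 to 22716399 of chromosome 1 (with a −log10 q of 2.09). It covered 88.3% of the facing flank of RALFL8 and 34.0% of that of RALFL9, and all of these flank bases lay in another annotated gene, AT1G61565.

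**Figure D3:**
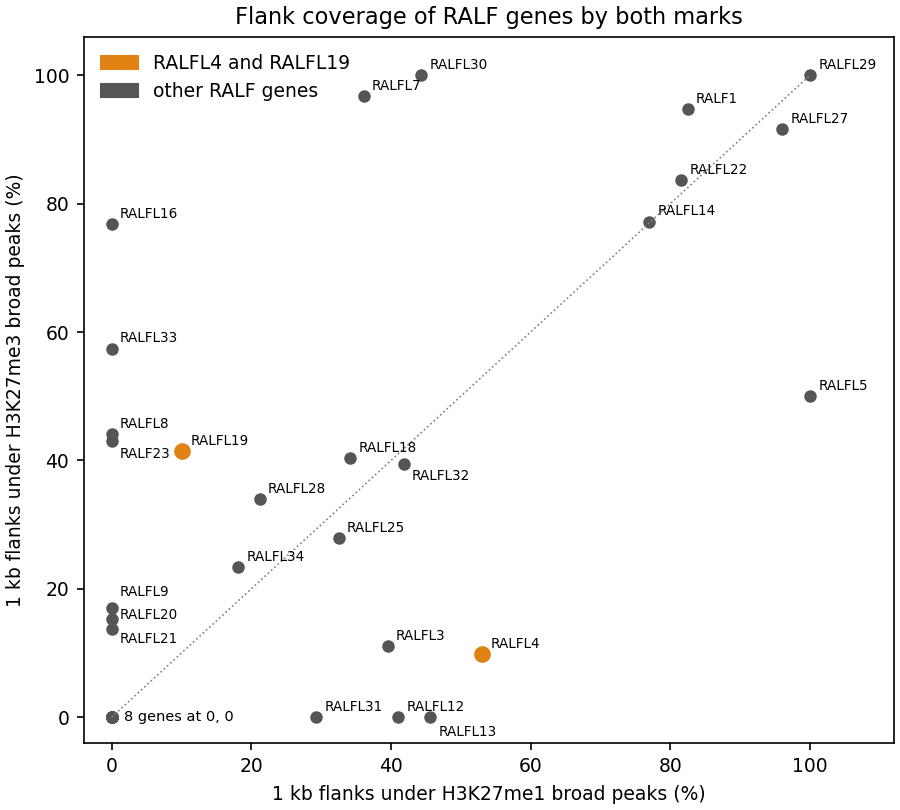
Percent of the 2 flanks of 1 kb of each RALF gene under H3K27me3 (vertical axis) and H3K27me1 (horizontal axis) broad peaks, 1 point per gene, with RALFL4 and RALFL19 in orange. RALFL8, RALFL9, RALFL16, RALFL20, RALFL21, RALF23 and RALFL33 stand on the vertical axis with no H3K27me1. RALFL12, RALFL13 and RALFL31 stand on the horizontal axis with no H3K27me3, and 8 genes at the origin.

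H3K27me3 was found beside but not within 11 RALF genes (32.4%, against 28.3% of all genes) and H3K27me1 beside but not within 13 (38.2%, against 25.8%). H3K27me3 lay on 1 side of 10 of its 11 genes and on both sides of RALFL34, a peptide of lateral root formation. The split by side is not given for all genes. RALFL34 had H3K27me3 over 34.4% and 12.4% of its 2 flanks and H3K27me1 over 36.2% of 1 flank, where the peaks of both marks reached into HEC1, the neighbour on that side. RALFL18 was covered 80.7% by H3K27me3 and 68.3% by H3K27me1 on its side of lower coordinates, with peaks that ended 27 bp (H3K27me3) and 3 bp (H3K27me1) short of the gene. RALFL32 was covered on 1 side too, 78.9% by H3K27me3 and 83.6% by H3K27me1, and RALFL28 68.0% by H3K27me3 and 42.4% by H3K27me1. RALFL21 had H3K27me3 over 27.6% of 1 flank and no H3K27me1. The H3K27me3 peak beside RALFL21 lay 724 bp from the gene, that beside RALFL28 320 bp, and those on the 2 sides of RALFL34 38 and 876 bp. Neither mark lay in the gene or within 1 kb in 8 RALF genes (23.5%, against 40.7% of all genes), namely RALFL2, RALFL6, RALFL10, RALFL11, RALFL15, RALFL17, RALFL24 and RALFL26.

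Around the edges of RALF genes, coverage by each mark was highest within the first 500 bp outside the gene, among positions up to 3000 bp away. H3K27me3 covered 30.9% of the 68 RALF gene edges themselves, 38.2% of positions 500 bp outside and 13.2% of positions 2000 bp outside. For all genes these shares were 15.0%, 24.0% and 15.7%. H3K27me1 covered 16.2% of RALF gene edges, 33.8% of positions 400 bp outside and 13.2% at 2000 bp, against 13.4%, 22.0% and 14.6% for all genes. At −150 bp, that is inside the gene, at 60 positions of RALF genes long enough to have it, H3K27me3 covered 28.3% and H3K27me1 15.0%, against 10.8% and 9.87% for all genes.

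**Figure D4:**
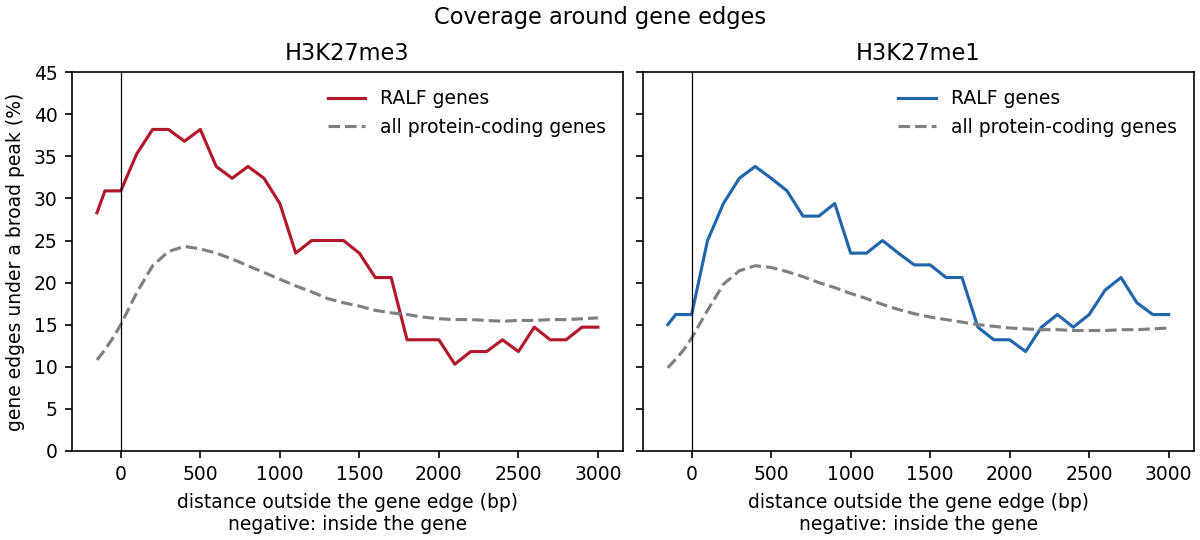
Percent of gene edges under a broad peak by distance from the edge in bp, with negative distances inside the gene, for RALF genes (solid, 68 edges) and all protein-coding genes (dashed). At the edge itself H3K27me3 stands at 30.9% for RALF genes and 15.0% for all genes, and H3K27me1 at 16.2% and 13.4%.

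RALF genes are short, and over all genes the share covered to at least 50% differed between classes of gene length. Their median length was 575 bp, against 2078 bp for all genes. Among genes of up to 500 bp, H3K27me3 covered at least 50% of 5 of 14 RALF genes (35.7%), against 21.1% of all such genes. Among genes over 500 and up to 1000 bp it did so for 4 of 13 (30.8%), against 16.1%, and among longer genes for 2 of 7 (28.6%, RALFL22 and RALFL33), against 3.42%. The class of longer genes has no upper limit, so lengths within it were not matched. The longest RALF gene had 1965 bp and the longest of all genes 27265 bp. H3K27me1 was close to its background in the shorter classes, with 3 of 14 (21.4%, against 20.5%) and 2 of 13 (15.4%, against 15.0%), and covered 0 of 7 of the longer genes (against 3.38%).

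**Figure D5:**
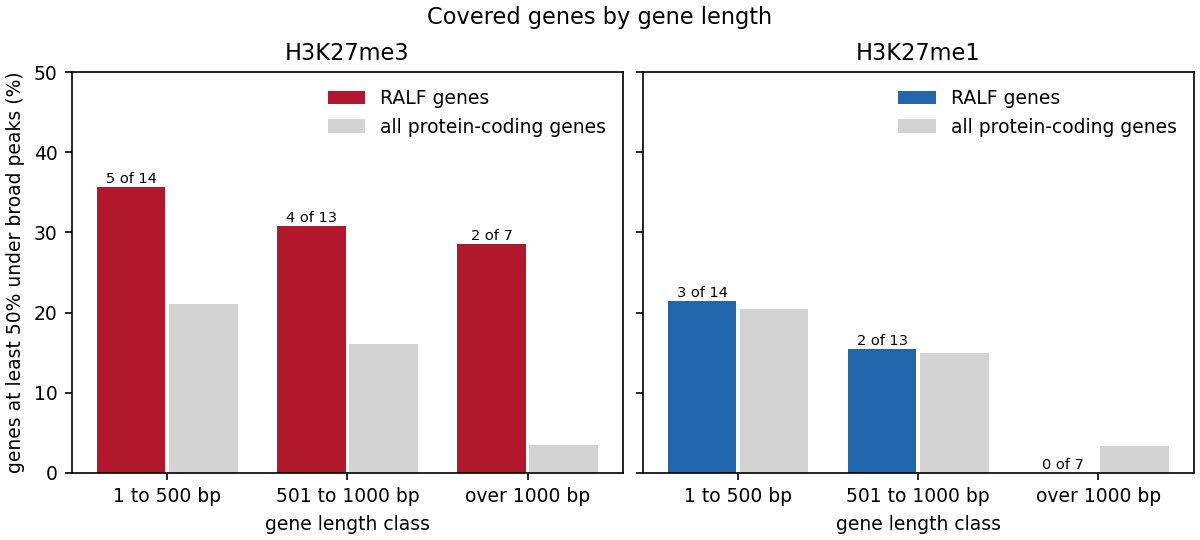
Percent of genes covered at least 50% by broad peaks in 3 classes of gene length, for RALF genes (coloured, with counts above the bars) and all protein-coding genes (grey). The class of longest genes has no upper limit. For H3K27me3 the RALF bars are 35.7%, 30.8% and 28.6% and the grey bars 21.1%, 16.1% and 3.42%, while for H3K27me1 the first 2 pairs are 21.4% and 20.5%, and 15.4% and 15.0%.

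The broad peaks on RALF genes had median widths above, and median folds near, those of their lists. The 12 H3K27me3 peaks touching a RALF gene had a median width of 2668 bp (404 to 7422 bp), a median fold of 1.65 (1.39 to 1.79) and a median −log10 q of 2.94, against 1122 bp, 1.64 and 2.67 for all 12927 broad H3K27me3 peaks. The 6 H3K27me1 peaks had medians of 3168 bp, 1.59 and 3.51, against 1168 bp, 1.57 and 2.99 for all 11898. Picking peaks that touch a gene favours wide peaks, and peaks touching any gene are not given for comparison. Peaks in the flanks of RALF genes only had median widths of 883 bp (H3K27me3) and 909 bp (H3K27me1), below those of their lists. Fold and q are the authors' values for each peak and are not compared between the lists. In the broad lists, the highest −log10 q on or beside a RALF gene was 4.70 for H3K27me3, on RALFL5, and 4.93 for H3K27me1, beside RALFL25, so that 0 RALF genes had a broad peak of at least 5 in the gene or the flanks, against 7.28% of all genes for H3K27me3 and 10.1% for H3K27me1. When only peaks at or above their list's median fold were kept, H3K27me3 touched 6 RALF genes (17.6%, against 14.9%) and covered at least 50% of the same number (17.6%, against 3.39%), and lay beside 10 (29.4%, against 30.7%). H3K27me1 in that selection touched 3 (8.82%, against 12.9%), covered at least 50% of 3 (8.82%, against 3.43%) and lay beside 10 (29.4%, against 26.7%). The RALF genes still touched by H3K27me3 were RALF1, RALFL5, RALFL16, RALFL22, RALFL27 and RALFL29.

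The narrow lists, which mark the sharper summits inside broad domains, had almost nothing within RALF genes. Narrow H3K27me3 peaks touched 0 of 34 (against 8.25% of all genes), and narrow H3K27me1 peaks touched 1 (2.94%, against 8.50%), RALFL27. Lengths were not matched here, and RALF genes, with a median of 575 bp against 2078 bp, offer fewer bases to touch. Neither covered 50% of a RALF gene, and of all genes 0.193% were covered that far by narrow H3K27me3 peaks and 0.306% by narrow H3K27me1 peaks. Within 1 kb, narrow peaks lay beside 10 RALF genes for H3K27me3 (29.4%, against 26.1%) and 11 for H3K27me1 (32.4%, against 25.0%), close to the shares of all genes. The strongest narrow peak of each list beside a RALF gene stood next to RALFL5, with its edge 95 bp from the gene for H3K27me3 (fold 2.45, −log10 q of 13.4) and 94 bp for H3K27me1 (fold 2.22, −log10 q of 14.6). The summits of these 2 peaks lay 337 bp (H3K27me3) and 245 bp (H3K27me1) from the gene. None of the summits lay in a RALF gene, and the median distance from summit to gene was 393 bp for the 13 H3K27me3 peaks and 503 bp for the 11 H3K27me1 peaks, each taken at its nearer RALF gene.

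Narrow peaks of the 2 marks overlapped at 9 places beside RALF genes, and at 5 of them (55.6%) the summits were at most 50 bp apart, as they were in 47.8% of the 7088 overlapping pairs over chromosomes 1 to 5. Beside RALFL18 the H3K27me3 summit at 14045880 and the H3K27me1 summit at 14045885 were 5 bp apart. At RALFL27 the 2 pairs of summits were 7 and 25 bp apart, at RALFL29 11 bp and at RALFL25 42 bp. The summits were farther apart at RALF1 (62 bp), RALFL5 (92 bp), RALFL4 (314 bp) and RALFL14 (454 bp). Beside RALFL16 and RALFL28 a narrow H3K27me3 peak stood without a narrow H3K27me1 peak, and beside RALFL12, RALFL13 and RALFL22 the reverse held, RALFL12 and RALFL13 sharing 1 peak.

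The receptors and partners of RALF peptides were covered over little of their length, and so were most genes. Over all genes the third quartile of gene coverage was 0.697% for H3K27me3 and 0% for H3K27me1. Of 33 such loci, listed from general knowledge of the pathway, H3K27me3 touched 12 (against 26.0% of all genes) and H3K27me1 touched 11 (against 22.7%). Both were larger shares than over all genes. Lengths were not matched, and most of these loci were longer than the median gene of 2078 bp, which offers more bases to touch. Of the 12 loci touched by H3K27me3, 7 were cell wall extensin loci. The highest coverage of any of these loci was 9.98% for H3K27me3 and 9.68% for H3K27me1. None reached 50% under either mark, and over all genes of more than 1000 bp, a length most of these loci exceed, 3.42% did for H3K27me3 and 3.38% for H3K27me1. With narrow peaks each mark touched 5 of these loci (against 8.25% of all genes for H3K27me3 and 8.50% for H3K27me1). With broad peaks of a −log10 q of at least 5, H3K27me3 touched 2 (against 3.28%) and H3K27me1 touched 1 (against 5.02%). FER, which encodes the receptor kinase FERONIA, had 0% of the gene and of its flanks under both marks. ANX1, a receptor kinase of the pollen tube, had 0% of the gene under both, and ANX2, its close relative, 5.16% under H3K27me3 and 5.78% under H3K27me1. The flanks of ANX2 were covered 61.9% by H3K27me3 and 77.5% by H3K27me1, and those of ANX1 2.30% by H3K27me3 and 0% by H3K27me1. HERK1, a receptor kinase of cell elongation, was covered 9.98% by H3K27me3 and 6.08% by H3K27me1, and LRX3, a leucine-rich repeat extensin, 8.58% by H3K27me3 and 9.68% by H3K27me1. The co-receptor genes LRE, LLG1, LLG2 and LLG3 and the protease gene S1P had 0% of the gene under both marks. The other loci with the most coverage have no symbol in the gene table used. H3K27me3 covered 8.72% of AT4G33970, 7.41% of AT2G15880, 6.57% of AT1G49490, 5.97% of AT4G18670, 5.16% of AT2G41970, 4.36% of AT3G19020 and 0% of AT2G39360. H3K27me1 covered 0% of AT4G33970, 7.88% of AT2G15880, 6.10% of AT1G49490, 4.44% of AT4G18670, 7.81% of AT2G41970, 3.66% of AT3G19020 and 5.55% of AT2G39360. AT2G21480 was covered 2.28% by H3K27me3 and 2.32% by H3K27me1, and AT4G39110 0% by both.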

How the data were processed

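The authors' deposited peak lists were used as they are. The submitters' processing notes list the build TAIR10 and, without saying what each was for, bedtools, Bowtie2 2.1.0, deepTools 2.5.0.1, MACS2 2.1.0, Picard, SAMtools 1.3 and Trim Galore 0.4.1. The sources used here do not say how samples and inputs were combined. Each deposited peak carries a fold enrichment (a ratio over the caller's background), a −log10 q and a score made from it, from the column layout. The deposited narrow lists also give a summit.

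Coverage was computed with Python 3.11.15, numpy 2.4.6 and pandas 2.3.3 after merging overlapping peaks. A gene counts as touched from 1 base. Symbols and intervals came from a RefSeq table of 38312 genes on TAIR10.1, which gives no strand, so flanks are named by coordinates. The builds were checked by moving narrow peaks against genes by multiples of 100 bp, at most 3000 bp either way, and the share of peak bases in genes was lowest unmoved in 10 of 10 combinations of mark and chromosome. Coverage was tested on simulated data. Flanks may lie in neighbouring genes. The windows around centromeres were 12 to 18, 1 to 7, 11 to 17, 2 to 6 and 9 to 16 Mb on chromosomes 1 to 5. The text names every RALF gene, and of the 33 partner loci FER, ANX1, ANX2, AT4G39110, AT2G21480 and the 10 with the most coverage, with LRE, LLG1, LLG2, LLG3 and S1P added after their values were seen. The members and lists were chosen with earlier results of these data known.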

Additional observations from a re-analysis of the deposited data

How the results depend on the processing

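The counts of covered RALF genes rest on broad peaks of moderate strength. With narrow peaks, H3K27me3 had a base in 0 RALF genes, covered 0 to at least 50%, lay in the 1 kb flanks of 10 and touched 5 partner loci, and H3K27me1 had a base in 1, covered 0, lay in the flanks of 11 and touched 5 partner loci. With broad peaks of a −log10 q of at least 5, all of these RALF counts were 0 for each mark, and H3K27me3 touched 2 partner loci and H3K27me1 touched 1. With the 50% of peaks of highest fold, H3K27me3 had a base in 6 RALF genes, covered 6 to at least 50%, lay in the flanks of 10 and touched 8 partner loci, and H3K27me1 had a base in 3, covered 3, lay in the flanks of 10 and touched 8 partner loci. The median flank coverage was 0% for each mark under all 3 selections, against 25.7% for H3K27me3 and 19.6% for H3K27me1 in the full broad lists. Requiring 10% of the length left 0 partner loci for each mark. The mean H3K27me3 flank coverage of RALFL4 and RALFL19, 25.6%, was 3.88% with narrow peaks, 0% at a −log10 q of at least 5 and 4.90% with the 50% of highest fold. For H3K27me1 it was 31.6%, and 3.92%, 0% and 4.75% under those 3 selections, which were applied to this pair after seeing the data. These selections keep fewer peaks by construction, and no other cause was tested. Flanks of 500 or 2000 bp, flanks without bases in other genes, and a minimum of 10% for RALF genes moved no count or median of the family by over 1.5 times. No paired analysis was possible because the lists hold no value per sample, and no sample could be left out for the same reason. Lists called separately at unknown depth limit any comparison between the marks.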
